A study of Mus musculus with 49 samples.

Results

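The AP-1 and BATF transcription factors were followed in CD8+ T cells of mice in which the tyrosine that activates STAT5A or STAT5B was replaced. The 10 genes *Fos*, *Fosb*, *Fosl1*, *Fosl2*, *Jun*, *Junb*, *Jund*, *Batf*, *Batf3* and *Maff* were taken by symbol, with the longest transcript of each, out of 23992 gene symbols in the RNA-seq tables. All 10 were among the 15566 genes with enough reads to be tested. The *Stat5a* line carried the Y694F allele and the *Stat5b* line the Y699F allele, each made by CRISPR/Cas9 in the germline and therefore present in every cell of the homozygous knock-in (KI) mice, and wild-type (WT) littermates of the same line were the controls. The mice were C57BL/6J, backcrossed for 6 generations, of both sexes and 8 to 24 weeks old. CD8+ T cells were isolated from the spleen and taken fresh (0 hr) or after 4, 24 or 48 hr in culture with recombinant human IL-2 at 500 IU/ml, the cytokine that drives T cell growth through STAT5. This gave 16 groups (2 lines, 2 genotypes, 4 time points) with 3 libraries each, and neither the labels nor the methods say whether the 3 came from separate animals or cultures, so the p-values measure the spread between these samples only. No cells were cultured without IL-2, so the action of IL-2 and that of culture itself cannot be told apart.

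AP-1 is a dimer of basic leucine zipper proteins. Members of the FOS family need a JUN partner, whereas JUN proteins also pair among themselves, and the dimer binds the TRE sequence (TGANTCA) or the related CRE (TGACGTCA). *Fos*, *Fosb*, *Jun* and *Junb* are immediate early genes, transcribed within minutes of a stimulus, including the handling of a tissue, while *Jund* is present in most resting cells. BATF and BATF3 have a leucine zipper but lack the activation domain of FOS, pair with JUN proteins, and in lymphocytes bind with IRF4 or IRF8 to composite sites, and BATF3 is also required for a class of dendritic cells. MAFF is a small MAF protein, a zipper without an activation domain. STAT5 is phosphorylated on the mutated tyrosine after IL-2 binds its receptor, and the phosphorylated dimer binds GAS sequences (TTCNNNGAA).

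One library of the 47 used stood apart. In the *Stat5a* line, WT replicate 2 at 4 hr had 17369112 reads on the longest transcripts, or 44.9% of its mapped reads, against at least 28445474 reads and 68.7% to 84.4% in the other 46. It was kept. Without it all 10 members were still lower at 4 than at 0 hr in WT cells of that line, the fall of *Fosl1* changing from −1.61 to −2.06 and that of *Maff* from −4.35 to −4.16 (log2), and 6 members in place of 5 passed between 4 and 24 hr. In KI against WT cells at 4 hr the difference of *Fosl2* changed from −0.62 to −0.95 (adjusted p = 0.0028), that of *Fosl1* from 0.15 to 0.61 and that of *Jun* from −0.43 to −0.18, and *Junb* (0.27 to −0.06) and *Maff* (0.10 to −0.09) changed sign. Replicate 3 of KI cells of the same line and time had 1028515 such reads, 5.68% of its mapped reads, and was left out by the rule that defined the gene set, so that group had 2 libraries. A floor of 3 reads, the limit that a count of 0 allows, corresponded to between 0.0498 and 0.173 RPM (reads per 1e6 counted) in a library and covers counting error only. The mutations change a codon, which counts per gene do not show, so the labels of genotype could not be checked from these files. *Stat5a* and *Stat5b* mRNA differed between KI and WT cells by under 2-fold at every time of both lines, the most for *Stat5b* at 48 hr in its own line (0.47 higher in KI cells on the log2 scale, adjusted p = 0.00053, edgeR).

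The cells carried the markers of CD8+ T cells throughout. The summed level of *Cd3d*, *Cd3e*, *Cd3g*, *Cd8a* and *Cd8b1* was 1015 ± 129.4 RPKM (reads per kilobase of transcript, relative to all mapped reads; SD, n = 3) in fresh WT cells of the *Stat5a* line and 1244 ± 75.5 RPKM in those of the *Stat5b* line. Markers of other spleen cells were also present, and their values in KI and WT cells are given after the KI comparisons. In bulk RNA, fewer cells of a type and less RNA per cell cannot be told apart.

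The sequence upstream of these genes is shown first, since AP-1 and STAT5 act on DNA and *Jun* is itself an AP-1 target. Promoters of 250 bases before to 50 bases after the start were read from RefSeq (GRCm38.p6) for 9 of the 10 members with 11 start sites, and *Fosl1* had no entry. Among 32851 mouse promoters of the same length, the TRE was found on either strand in 7.81%, the CRE in 1.79%, the GAS in 8.3% and the CArG box, the site of serum response factor, in 1.63%. No member matched the TRE or the CArG box, 1 of the 9 (*Maff*) held the CRE, and 2 of the 9 held a GAS, *Batf3* and *Maff*, the latter 27 bases after its second start. A looser 8-letter form, TGANNTCA, which includes the CRE and was added after the first 4 motifs had been seen, was found in 14.1% of all promoters and in 3 of the 9 members, *Jun*, *Jund* and *Maff*. *Jun* held another match of this form (TGAGCTCA) 2 bases after its start, and *Maff* another (TGACATCA) 45 bases before a later start. Neither is shown. The windows below carry 10 bases on each side of the match, 5′ to 3′ on the strand of the gene, with the match in capitals. The *Jun* window lies 45 bases before the start (chr4:95052250-95052277, minus strand), that of *Jund* 61 bases before (chr8:70697668-70697695, plus strand), that of *Maff* holds the full CRE 29 bases before its second start (chr15:79347481-79347508, plus strand), and that of *Batf3* holds a GAS 239 bases before the start (chr1:191098165-191098193, plus strand).
Jun: agcctcggggTGACATCAtgggctattt
Jund: gttgaggcagTGAAATCAccctcagtct
Maff: gctggggcggTGACGTCActgcatgact
Batf3: gccacgtgacTTCCACGAAgagcgggggc
A match of letters is a description of the sequence and no binding was measured at these sites here.

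In fresh WT cells *Junb*, whose protein is a JUN family member of activated T cells, was the most abundant of the 10. Its level was 504.2, 720.5 and 653.1 RPKM in the 3 libraries of the *Stat5a* line and 803.1, 694.2 and 626.1 RPKM in those of the *Stat5b* line, a share of 39.8% and 44.1% of the summed RPKM of the members. *Jund* followed with 296 and 295 RPKM on average. *Fos* lay at 178 ± 38.0 and 205 RPKM, *Jun* at 175.1 and 149.1 RPKM and *Fosb* at 169 and 107.4 RPKM, and the ranges of these 3 genes overlapped in the *Stat5a* line. *Maff* (55.6 and 47.5 RPKM) and *Fosl2* (54.4 and 65.9 RPKM) came next, then *Batf* at 21.6 and 19.9 RPKM, *Batf3* at 3.71 and 4.07 RPKM, and *Fosl1* below 1.5 RPKM in every library.

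**Figure D1:**
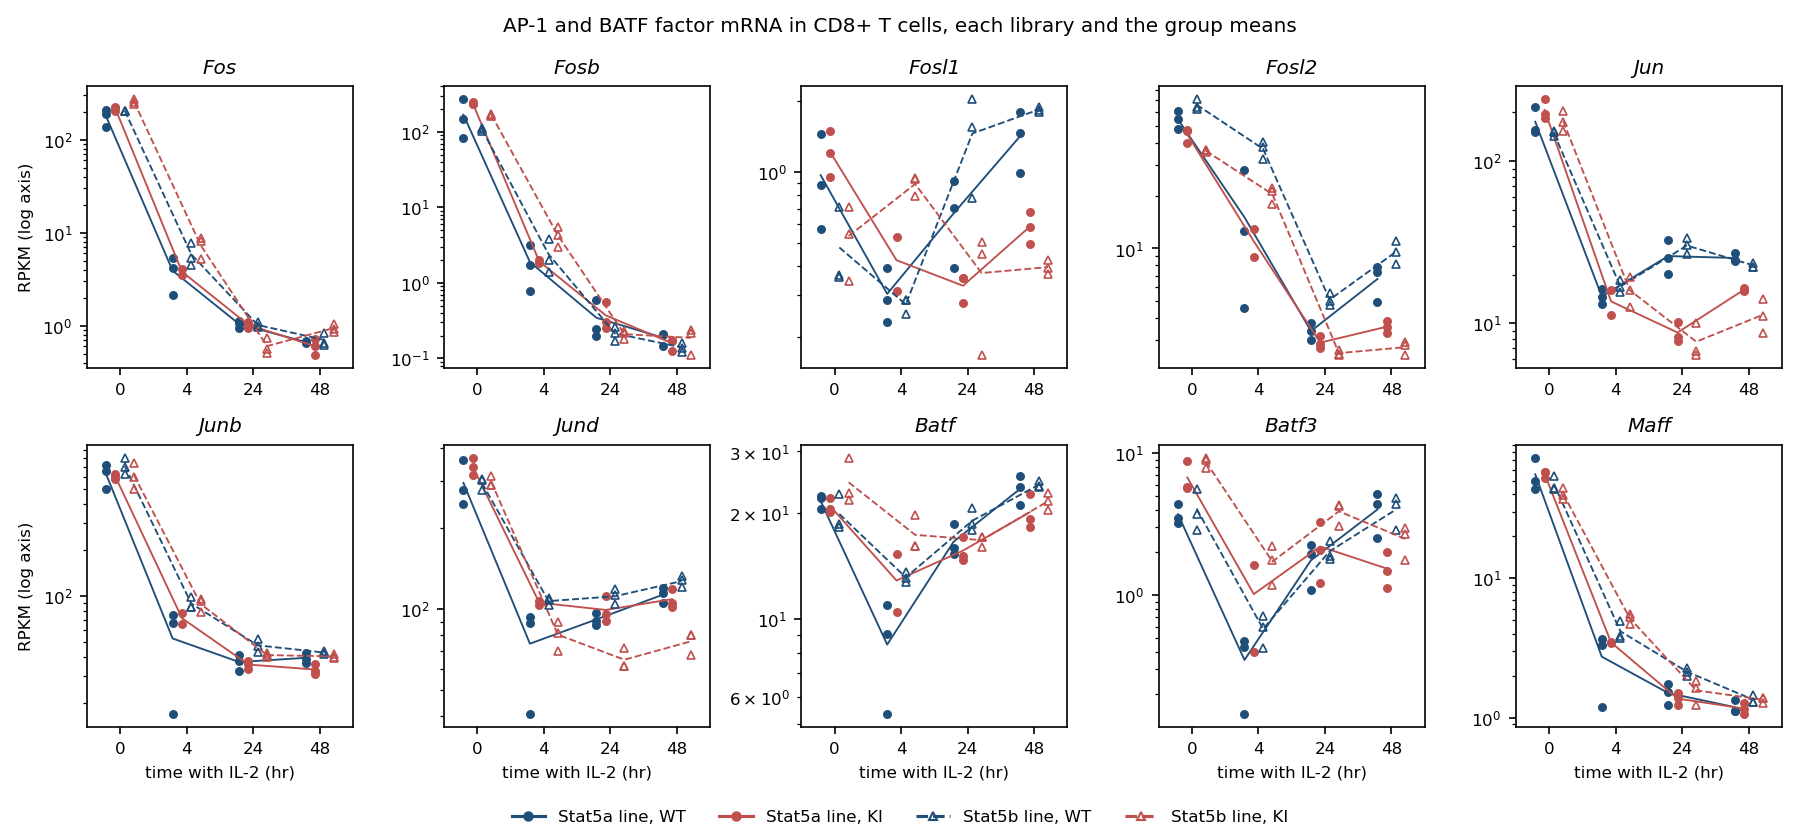
RPKM on a log axis against hours with IL-2 for the 10 members, with each point a library and each curve through the group means. Colours mark the 2 genotypes, and marker shapes and solid or dashed curves mark the 2 mouse lines. *Fos*, *Fosb* and *Maff* were highest at 0 hr and lower at every later time, while *Batf* averaged 23.5 and 24.1 RPKM at 48 hr against 21.6 and 19.9 RPKM at 0 hr in WT cells.

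Most of this expression was gone by 4 hr. In WT cells of the *Stat5a* line 10 of 10 members were lower at 4 hr than at 0 hr (at least 2-fold with an adjusted p of at most 0.05 by edgeR's quasi-likelihood test, where 11.4% of all genes tested were lower), and in the *Stat5b* line 8 of 10 (background 9.89%). At 24 hr 8 members were lower in each line (background 14.2% and 13.5%), and at 48 hr 7 in each (22.3% and 20.7%). *Fosl1* of the *Stat5b* line was higher at 24 hr (background of higher genes 9.07%) and at 48 hr (14.6%). The 3 comparisons of a line share its 0 hr libraries and are not independent of each other. The summed RPKM of the 10 members dropped from 1580.2 and 1602.5 at 0 hr to 215.6 and 234.4 at 48 hr in the *Stat5a* and *Stat5b* lines.

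*Fos* and *Fosb*, which encode the FOS proteins that carry a C-terminal activation domain, changed most. *Fos* in the *Stat5a* line was at 135.45, 208.29 and 190.67 RPKM at 0 hr and at 5.34, 2.16 and 4.23 RPKM at 4 hr, and had fallen to 0.666, 0.660 and 0.683 RPKM by 48 hr. Every later WT library lay far below the lowest fresh one. This was a fall of 5.51 ± 0.18 (log2, SE) at 4 hr (45.5-fold, adjusted p = 1.8e-23, edgeR) and 307-fold at 48 hr, and in the *Stat5b* line 39.3-fold and 330-fold. *Fosb* fell by 6.50 and 5.64 (log2) by 4 hr, and 1030-fold and 865-fold by 48 hr, when its mean level was 0.188 and 0.140 RPKM. *Fos* and *Fosb* went on falling between 4 and 24 hr in both lines, by 4.22-fold and 6.11-fold in the *Stat5a* line and 5.83-fold and 11.3-fold in the *Stat5b* line.

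*Maff* followed the same course. It fell 20.4-fold by 4 hr in the *Stat5a* line and 12.8-fold in the *Stat5b* line, and by 48 hr 53.9-fold and 39.8-fold, from a mean of 55.6 and 47.5 RPKM to 1.20 and 1.35 RPKM. *Junb* fell 12.6-fold and 8.98-fold by 4 hr and reached 39.3 and 42.5 RPKM at 48 hr, so that its share of the members' RPKM was 18.2% and 18.1%. *Fosl2*, a FOS protein without that domain, was slower in the *Stat5b* line, at 71.2, 62.5 and 64.0 RPKM at 0 hr, 40.6, 37.8 and 32.3 RPKM at 4 hr, and 5.00, 5.55 and 4.77 RPKM at 24 hr. The 3 times did not overlap. Its fall at 4 hr was 2.02-fold and lay below 2-fold without 1 of 2 libraries (log2 −0.91 and −0.92), for the transcript with the most reads (−0.99) and by limma with either pseudocount (−0.82 and −0.84), and the fall from 4 to 24 hr was 7.30-fold. The *Stat5a* line's 4 hr values of 12.55, 4.599 and 27.98 RPKM were spread widely, with the lowest in the library that stood apart.

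*Jun* and *Jund* also fell by 4 hr. *Jun* in the *Stat5a* line was at 155.72, 217.22 and 152.45 RPKM at 0 hr and at 16.3, 14.5 and 13.3 RPKM at 4 hr, an 11.3-fold fall (9.97-fold in the *Stat5b* line). At 24 hr it lay between 20.2 and 32.7 RPKM, above every 4 hr library of that WT group. The difference between 24 and 4 hr was 0.57 ± 0.19 and 0.83 ± 0.19 (log2) in the lines, under 2-fold in both (adjusted p = 0.012 and 0.00049, edgeR). *Jund* fell 4.04-fold and 3.11-fold by 4 hr and was at 113.4 and 127.3 RPKM at 48 hr. It was then the most abundant member, with 52.6% and 54.3% of the summed RPKM against 18.8% and 18.5% in fresh cells. At 48 hr the order of the means in the *Stat5a* line was *Jund*, *Junb*, *Jun*, *Batf*, *Fosl2*, *Batf3*, *Fosl1*, *Maff*, *Fos* and *Fosb*, where the ranges of *Jun* and *Batf*, of *Fosl2* and *Batf3*, and of *Fosl1* and *Maff* overlapped. In the other line *Batf* (23.8 to 24.6 RPKM) lay just above *Jun* (22.3 to 23.7 RPKM), and the ranges of those 3 pairs did not overlap.

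The BATF genes fell at first and were near their fresh level at 48 hr. *Batf*, the partner of JUN proteins at sites shared with IRF4, fell 2.55-fold by 4 hr in the *Stat5a* line, from 20.5, 22.1 and 22.4 RPKM to 9.03, 5.343 and 10.95 RPKM. WT cells of the *Stat5b* line had 13.1 RPKM at 4 hr against 19.9 RPKM when fresh, under 2-fold. By 48 hr its mean was 23.5 and 24.1 RPKM, with a difference from 0 hr of −0.09 and 0.10 (log2, adjusted p = 0.47 and 0.42, edgeR). *Batf3* fell 10.3-fold and 7.91-fold by 4 hr, rose 4.36-fold and 3.49-fold from 4 to 24 hr, and at 48 hr differed from 0 hr by −0.09 and −0.19 (log2, adjusted p = 0.81 and 0.63). Between 4 and 24 hr 5 members changed in each line (background 19.6% and 14.8% of genes in either direction), and between 24 and 48 hr *Fosl1* (2.06-fold) and *Batf3* (2.21-fold) rose in the *Stat5a* line (background 9.39%). Both rises were under 2-fold without WT replicate 1 at 24 hr (0.83 and 0.95, log2) or WT replicate 3 at 48 hr (0.88 and 0.97). For that step none of the 10 passed in the *Stat5b* line (background 7.87%, edgeR), where 6 had an unadjusted p under 0.05, DESeq2 called 1 and limma called 0 with either pseudocount.

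*Fosl1*, a FOS protein induced late after growth stimuli, was low in fresh cells and fell 3.05-fold by 4 hr in the *Stat5a* line, a call that was lost with only the libraries compared (−1.52 log2, adjusted p = 0.085, edgeR) and by limma on log2(RPKM + 1) (−0.57). In the *Stat5b* line it was at 0.710, 0.360 and 0.367 RPKM at 0 hr, 1.55, 2.04 and 0.777 RPKM at 24 hr, and 1.80, 1.88 and 1.84 RPKM at 48 hr, a 2.66-fold and 3.38-fold rise (adjusted p = 0.0013 and 7.9e-05, edgeR), under 2-fold by limma on log2(RPKM + 1) (0.71 and 0.95). The 48 hr libraries of the *Stat5a* line had 0.995, 1.47 and 1.80 RPKM, and their difference from 0 hr was 0.35 (log2) with no call. Another gene, *Ccdc85b*, overlaps *Fosl1* on the opposite strand. Its reads also rose, by under 2-fold, from 0 to 24 hr (0.41 and 0.48 log2 in the lines, adjusted p = 5e-04 and 5.4e-05, edgeR). They rose from 4 to 24 hr (0.53 and 0.56) and from 0 to 48 hr (0.23 and 0.27, adjusted p = 0.032 and 0.014, edgeR). The part of *Ccdc85b* reads in the rise of *Fosl1* with time was not tested.

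A list of 22 early-response genes known to be set off by tissue handling, none of which is among the 10 members, was also mostly lower after 0 hr. *Atf3* is counted both here and among the ATF genes described later. The summed level of the 22 genes in WT cells was 2069 and 1639 RPKM at 0 hr, 457 and 624 RPKM at 4 hr, and 302 and 303 RPKM at 48 hr, with *Nfkbia* the most abundant in fresh WT cells of the *Stat5a* line. Of the 22, 19 were lower at 4 hr in the *Stat5a* line (median log2 −2.06, against 0.012 for all genes) and 15 in the *Stat5b* line (−1.54, against −0.035). Beside these, 11.4% and 9.89% of all genes were lower. The part of cell isolation in the 0 hr levels was not tested. At 48 hr the median of all genes stood at −0.123 and −0.133 against 0 hr, small beside these falls.

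The comparison of KI with WT cells asked which of these mRNAs depend on the STAT5 tyrosine, and the calls for lower levels in KI cells, past both thresholds, came at 24 and 48 hr, in *Jun*, *Fosl1*, *Fosl2* and *Batf3*. *Fosl2* of the *Stat5b* line was already lower at 0 and 4 hr, by under 2-fold (−0.94 and −0.97 log2, adjusted p = 0.0022 and 0.0011, edgeR). At 0 hr none of the 10 members passed in KI against WT cells of the *Stat5a* line (background 1.04%, edgeR), with 1 at an unadjusted p under 0.05 and 0 by DESeq2 or limma. At 4 hr none passed either (background 6.63%), with 4 at an unadjusted p under 0.05 and 1 by DESeq2 (*Batf3*). That background rested on few libraries, since 430 genes were called in place of 1032 without the library that stood apart and 54 without KI replicate 1. At 24 hr *Jun* and *Fosl1* were lower (background 1.24%), and at 48 hr *Fosl1* and *Batf3* (2.43%). In the *Stat5b* line *Batf3* was higher in KI cells at 0 hr (background 7.38%) and *Batf3* and *Fosl1* at 4 hr (9.2%), and *Jun*, *Fosl1* and *Fosl2* were lower at 24 hr (5.77%) and at 48 hr (9.81%). The median of all genes stood at 0.104 (log2) in that last comparison, so that the falls there are slightly larger relative to it.

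**Figure D2:**
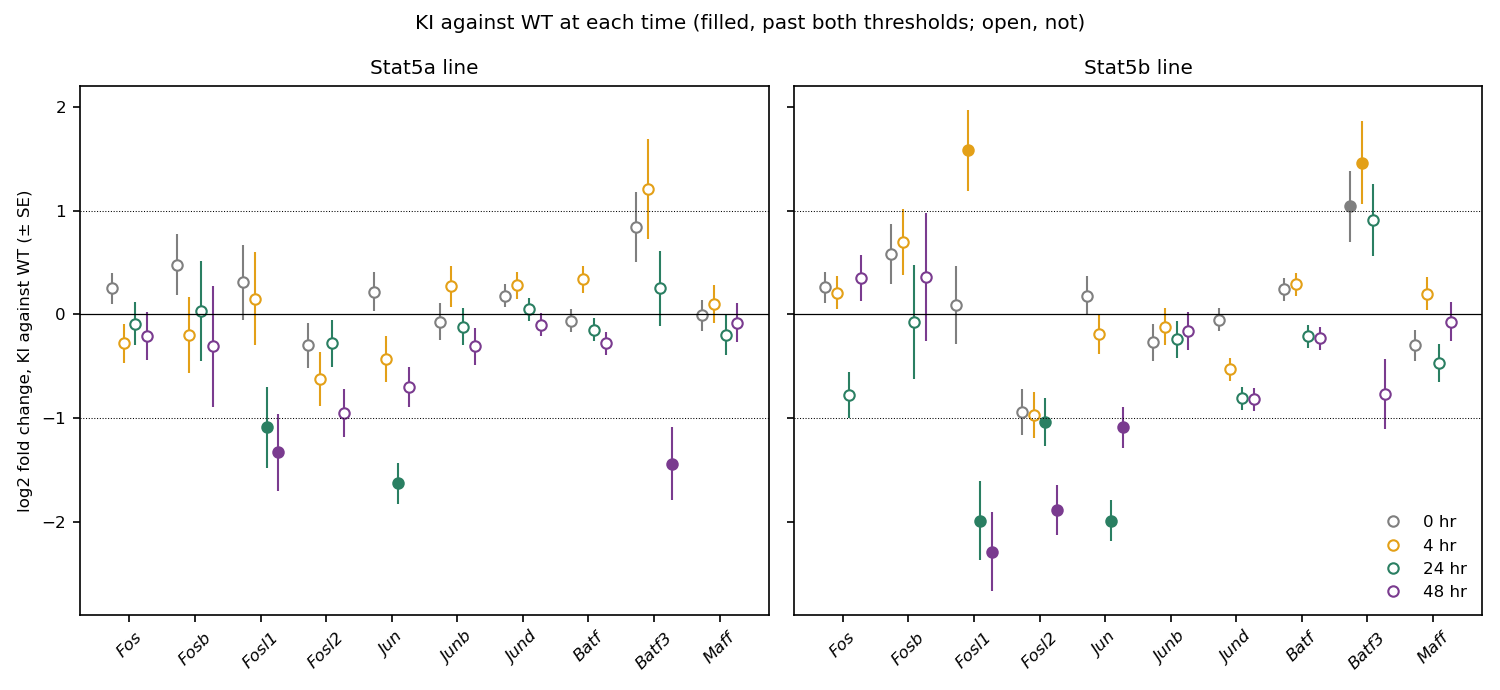
Log2 fold change of KI against WT (edgeR) with its SE at 0, 4, 24 and 48 hr for the 10 members in both lines, filled where it passed both thresholds, with dotted lines at 2-fold. Of the 4 times, *Jun* had its lowest value at 24 hr in both lines, and *Fosl1* in the *Stat5b* line went from 1.58 at 4 hr to −2.29 at 48 hr.

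*Jun*, whose protein is a partner of FOS and BATF proteins, was lower in KI cells of both lines at 24 hr. At that time the WT libraries of the *Stat5a* line had 20.2, 25.1 and 32.7 RPKM and the KI libraries 10.2, 7.82 and 8.27 RPKM. Those of the *Stat5b* line had 30.3, 33.5 and 26.8 RPKM against 6.73, 10.1 and 6.34 RPKM. The groups did not overlap in either line, and the fall in KI cells was 1.63 ± 0.20 (log2; 3.10-fold, adjusted p = 7e-07, edgeR) and 1.99 ± 0.20 (3.98-fold, 2.1e-10). At 48 hr the *Stat5b* line had 22.3, 22.3 and 23.7 RPKM in WT against 11.1, 14.1 and 8.68 RPKM in KI cells (2.14-fold, 8.8e-06), which was not called without KI replicate 3 or by limma on log2(RPKM + 1) (−0.98 log2). The *Stat5a* line had 27.0, 24.7 and 24.2 against 16.4, 16.1 and 15.9 RPKM, again without overlap but under 2-fold (−0.70 log2, adjusted p = 0.0032). At 4 hr the values were −0.43 and −0.19 (log2), with no call.

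*Fosl2* was lower in KI cells of the *Stat5b* line from the start. Fresh KI cells had 36.3, 35.4 and 36.2 RPKM against 71.2, 62.5 and 64.0 RPKM in WT cells, a difference of −0.94 ± 0.22 (log2, adjusted p = 0.0022), just under 2-fold. At 4 hr the difference was −0.97 (adjusted p = 0.0011, edgeR), also under 2-fold, but passed without WT replicate 3 (−1.07, adjusted p = 0.0015, edgeR). At 24 hr it passed at 2.05-fold (0.00033), a value under 2-fold without WT replicate 2 (−0.98 log2) and by limma with either pseudocount (−0.79 and −0.98). At 48 hr WT libraries had 9.555, 11.04 and 8.158 RPKM against 2.93, 2.83 and 2.46 RPKM in KI libraries, a 3.70-fold fall (1.2e-08). WT and KI libraries of this line did not overlap at any of the 4 times. In the *Stat5a* line the 48 hr values of 4.95, 7.84 and 7.32 RPKM in WT and 3.88, 3.55 and 3.32 RPKM in KI cells gave −0.95 (log2, adjusted p = 0.00089), which passed 2-fold with all 48 libraries, with no filter and for the transcript with the most reads (−1.01, −1.01 and −1) and in 3 of the 6 fits without 1 library (−1.13, −1.04 and −1.01).

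*Fosl1* was lower in KI cells late in culture and, in the *Stat5b* line, higher at 4 hr. The *Stat5b* line at 48 hr had 1.80, 1.88 and 1.84 RPKM in WT and 0.370, 0.426 and 0.392 RPKM in KI cells, a 4.89-fold fall (adjusted p = 2.7e-06, edgeR). At 24 hr the fall was 3.98-fold (4e-05). At 4 hr KI libraries had 0.937, 0.942 and 0.790 RPKM against 0.287, 0.251 and 0.287 RPKM, a 2.98-fold rise (0.0024). In the *Stat5a* line *Fosl1* was lower at 24 hr (2.12-fold, 0.048) and at 48 hr (2.51-fold, 0.0031), the first of which was lost in 5 of the 6 fits that left out 1 library, with an adjusted p of up to 0.22.

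The *Fosl1* reads need care. Its exons 3 and 4 (chr19:5454413-5454520 and chr19:5454892-5455938 in the mm10 annotation, plus strand), 1155 of 1705 exon bases or 67.7%, lie opposite an exon of *Ccdc85b*, and the sources used here do not say whether strand was used in counting. At 48 hr in the *Stat5b* line *Fosl1* had 192, 187 and 169 reads in WT and 32, 40 and 36 in KI libraries, whereas *Ccdc85b* had 1514, 1436 and 1381 against 1442, 1568 and 1340. *Ccdc85b* differed between KI and WT cells by between −0.24 and 0.16 (log2) over the 8 comparisons and was called in none of them. The level of *Fosl1* itself remains uncertain.

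**Figure D3:**
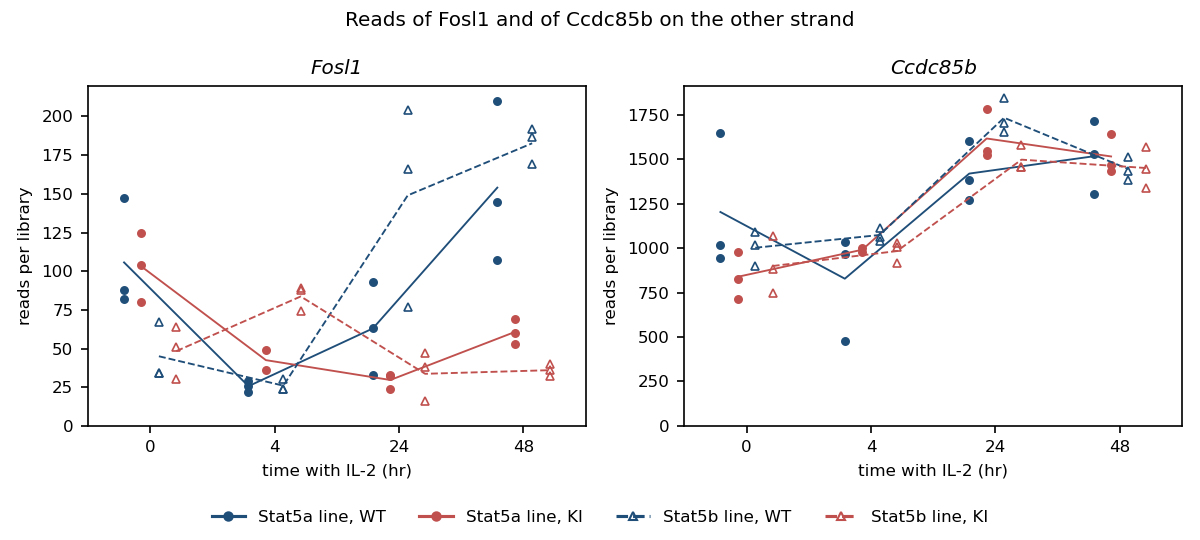
Reads per library of *Fosl1* and of *Ccdc85b* on a linear axis against hours with IL-2, in the 2 lines and 2 genotypes. At 48 hr in the *Stat5b* line the *Fosl1* points of KI cells (32 to 40 reads) lie apart from those of WT cells (169 to 192), while the *Ccdc85b* points mix.

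*Jund* passed the p threshold but not 2-fold in the *Stat5b* line. At 4 hr it was at 109.87, 103.8 and 108.12 RPKM in WT and 81.6, 89.5 and 70.2 RPKM in KI cells (−0.53 log2, adjusted p = 0.00046), whereas the *Stat5a* line had 93.9, 40.6 and 88.8 RPKM in WT and 107.78 and 103.87 RPKM in KI cells (0.28, adjusted p = 0.094). At 24 hr the *Stat5b* line was at 104.3, 112.6 and 118.6 RPKM in WT and 61.5, 71.7 and 61.5 RPKM in KI cells (−0.81 ± 0.11, log2, adjusted p = 2e-07, edgeR), and at 48 hr at 128.2, 121.1 and 132.7 against 79.9, 80.2 and 67.9 RPKM (−0.82 ± 0.11, 7.7e-08). No KI library of this line reached the lowest WT library at these times. *Junb* showed no call at any time, with differences between −0.27 and 0.27 (log2) at 0 and 4 hr in both lines −0.24 and −0.16 at 24 and 48 hr in the *Stat5b* line, and −0.12 and −0.31 in the *Stat5a* line. At 48 hr the *Stat5a* KI libraries (30.8 to 35.9 RPKM) lay below WT (36.5 to 42.55 RPKM; adjusted p = 0.17).

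*Batf3* was higher in KI cells at 0 and 4 hr in the *Stat5b* line and lower at 48 hr in the *Stat5a* line. Fresh KI cells of the *Stat5a* line had 8.77, 5.67 and 5.82 RPKM against 3.51, 4.41 and 3.20 RPKM in WT, also without overlap but with no call (0.84 log2, adjusted p = 0.18, edgeR). Their 4 hr libraries overlapped, with 1.64 and 0.397 against 0.476, 0.145 and 0.429 RPKM (1.21 log2, adjusted p = 0.061), a difference that DESeq2 called (0.043). Fresh KI cells of the *Stat5b* line had 9.30, 8.92 and 7.91 RPKM against 2.89, 3.70 and 5.61 RPKM, a 2.05-fold difference (adjusted p = 0.022) that was lost in 4 of the 6 fits without 1 library. At 4 hr it was 2.75-fold higher (1.76, 2.23 and 1.18 against 0.595, 0.425 and 0.717 RPKM, 0.0052). At 24 hr the KI libraries had 3.08, 4.26 and 4.34 RPKM and the WT libraries 1.90, 2.42 and 1.79 RPKM (0.91 log2, adjusted p = 0.028, edgeR), apart but under 2-fold. By 48 hr the ranges overlapped, at 1.77, 2.98 and 2.71 against 4.80, 4.38 and 2.87 RPKM (−0.77 log2, adjusted p = 0.05, edgeR), with no call. The 24 hr value passed without WT replicate 2 (1.04 log2) or KI replicate 1 (1.06), and the 48 hr value without WT replicate 3 (−1.01). At 48 hr the *Stat5a* KI libraries had 2.02, 1.48 and 1.12 RPKM against 2.54, 4.37 and 5.14 RPKM in WT, a 2.71-fold fall (0.001). *Batf* itself differed by no more than 0.34 (log2) at any time of either line, with 1 adjusted p of 0.046 at 4 hr and 1 of 0.041 at 48 hr in the *Stat5a* line. In the *Stat5b* line its KI libraries lay above WT at 4 hr without overlap (16.1 to 19.8 against 12.8 to 13.6 RPKM). They lay below WT without overlap at 24 hr (16.0 to 17.2 against 17.9 to 20.6 RPKM) and 48 hr (20.4 to 22.8 against 23.8 to 24.6 RPKM). *Fos*, *Fosb* and *Maff* had no call in KI against WT cells. *Fosb* at 0 hr in the *Stat5a* line was called higher without WT replicate 2 (1.03 log2, adjusted p = 0.038, edgeR). *Maff* at 24 hr in the *Stat5b* line was at 1.24 to 1.84 RPKM in KI and 2.01 to 2.28 RPKM in WT libraries, without overlap. In fresh KI cells of the *Stat5b* line *Fos* (252, 275.4 and 241.9 against 206, 204 and 205 RPKM) and *Fosb* (169, 174 and 161.5 against 111.5, 101.7 and 108.9 RPKM) lay above WT without overlap (0.26 and 0.58 log2, adjusted p = 0.21 and 0.15). *Fosb* at 4 hr (0.70, adjusted p = 0.098) was called higher without WT replicate 1 (1.22, 0.0089). *Fos* at 24 hr in that line was 0.988, 1.10 and 0.970 RPKM in WT and 0.740, 0.557 and 0.516 RPKM in KI cells (−0.78 log2, adjusted p = 0.0039), and at 48 hr KI cells lay above WT, at 0.931, 0.867 and 1.04 against 0.625, 0.646 and 0.842 RPKM (0.35, adjusted p = 0.16).

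Summed levels of B cell, myeloid and dendritic cell genes were higher in KI than in WT cells of both lines at each time, whereas that of NK cell genes was lower at 48 hr. The summed RPKM of 8 B cell genes, with *Cd79a* the most abundant at that time, in fresh cells was 123.1 in WT and 279.6 in KI cells of the *Stat5a* line, and 56.8 and 227 in those of the *Stat5b* line. At 48 hr it was 26.7 and 107.6, and 11.85 and 123.4. All 8 were higher in KI cells of the *Stat5b* line at each time, and 3, 5, 8 and 8 of 8 in the *Stat5a* line from 0 to 48 hr. Over all genes 0.861%, 2.47%, 3.21% and 6.35% were higher in KI cells of the *Stat5a* line from 0 to 48 hr. For the *Stat5b* line these shares were 7.38%, 9.2%, 10.9% and 16.5%. Of 6 dendritic cell genes, which include *Clec9a* and *Xcr1* of the BATF3-dependent class, 0, 0, 2 and 5 were higher in *Stat5a* KI cells and 2, 2, 4 and 6 in *Stat5b* KI cells from 0 to 48 hr. Their summed RPKM in the *Stat5b* line was 47.3 in WT and 90.2 in KI cells at 0 hr, 19.1 and 43.7 at 4 hr, and 2.97 and 17.7 at 48 hr, with *Siglech* the most abundant except in WT cells at 48 hr, where it was *Itgax*. Of 8 myeloid genes, with *Lyz2* the most abundant in fresh cells, 1, 5, 7 and 6 were higher in *Stat5a* KI and 7, 7, 8 and 8 in *Stat5b* KI cells, and *C1qa*, *Cd14* and *Csf1r* were at 0 in at least 1 WT library of the *Stat5b* line at 48 hr. The 5 CD8+ T cell genes summed to 1044 RPKM in WT and 1579 in KI cells of the *Stat5b* line at 48 hr.

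**Figure D4:**
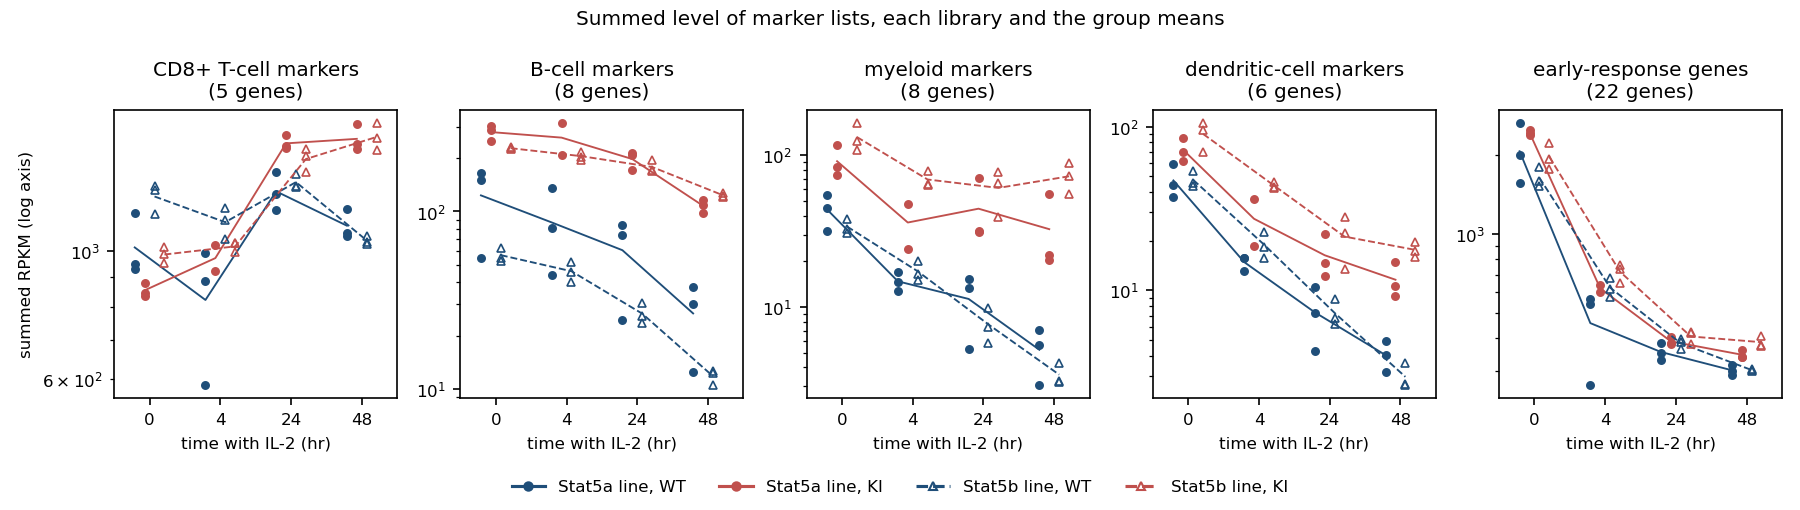
Summed RPKM per library on a log axis against hours with IL-2 for genes of CD8+ T cells (5 genes), B cells (8), myeloid cells (8), dendritic cells (6) and the early response (22), in the 2 lines and 2 genotypes. In the *Stat5b* line at 48 hr the B cell sum was 11.85 RPKM in WT and 123.4 RPKM in KI cells, while the CD8+ T cell sum was 1044 and 1579 RPKM.

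These sums differed with genotype at the times when the AP-1 calls were made, and at 0 and 4 hr as well, and the part of other cells in the differences of *Batf3*, *Fosl1*, *Fosl2* and *Jun* was not tested. The most abundant B cell marker, *Cd79a*, was at 82.9 RPKM in fresh KI cells of the *Stat5b* line, below *Cd3d* at 155 RPKM. In fresh KI cells of the *Stat5a* line *Cd79a* was at 110.9 RPKM, and the 5 CD8+ T cell genes summed to 854.7 RPKM. Of 6 genes of memory CD8+ T cells 4 were lower and 1 higher in KI cells of the *Stat5b* line at 48 hr (summed RPKM 1193 in WT and 725 in KI), of 4 genes of naive T cells 2 were higher (497 and 971), of 6 NK cell genes 2 were lower and 2 higher (447 and 354), of 4 CD4+ T cell genes 3 were higher (3.76 and 17.4), and of 5 erythroid genes 4 were higher (2.76 and 70.2), where 16.5% of all genes were higher and 9.81% lower. In the *Stat5a* line at 48 hr 1 memory gene was lower (1015 and 663), 1 NK gene was lower and 1 higher (441 and 374), and 2 CD4+ T cell genes were higher (4.99 and 12.9), beside 6.35% of all genes higher and 2.43% lower. Of the 22 early-response genes at most 2 were called between KI and WT cells of the *Stat5a* line at any time, and in the *Stat5b* line 4 were higher in fresh KI cells, none was called at 4 hr (edgeR, with 13 at an unadjusted p under 0.05, 0 by DESeq2 and 1 by limma), 1 was higher and 2 lower at 24 hr, and 2 were higher and 2 lower at 48 hr. Over all genes of that line the shares higher in KI cells were 7.38% at 0 hr, 10.9% at 24 hr and 16.5% at 48 hr, and the shares lower were 5.77% and 9.81% at the last pair of times.

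The change over time was then compared between KI and WT cells, which asks whether the response from 0 hr differs with genotype. These differences use the same libraries as the comparisons above. At 4 hr none of the 10 members passed in the *Stat5a* line (background 0.34%, edgeR) or the *Stat5b* line (0.61%), with 3 at an unadjusted p under 0.05 in each and 0 by DESeq2 or limma. At 24 hr *Jun* passed in the *Stat5a* line (background of lower genes 1.31%), with a response lower by 1.85 ± 0.27 (log2, adjusted p = 6.8e-05). *Jun*, *Fosl1* and *Fos* passed in the *Stat5b* line (6.66%), with −2.18 ± 0.28 (6.3e-08), −2.08 ± 0.54 (0.0024) and −1.04 ± 0.27 (0.0023). The *Fos* value fell under 2-fold in 4 of the 12 fits without 1 library (smallest −0.91) and with only the libraries compared (−0.99), and was not called with all 48 libraries (adjusted p = 0.24, edgeR) or by limma with either pseudocount. At 48 hr *Batf3* and *Fosl1* passed in the *Stat5a* line (3.09%), with −2.28 ± 0.49 (0.00052) and −1.64 ± 0.51 (0.014), and *Fosl1*, *Batf3* and *Jun* in the *Stat5b* line (11.1%), with −2.38 ± 0.54 (0.00035), −1.81 ± 0.48 (0.0019) and −1.28 ± 0.27 (0.00017). *Fosl2* in the *Stat5b* line at 48 hr had −0.95 ± 0.32 (0.013), under 2-fold.

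Whether the KI effect differed between the lines was tested directly. None of the 10 members passed at 0, 4, 24 or 48 hr (background 0.0964%, 4.72%, 2.65% and 2.06%, edgeR), where 0, 2, 3 and 2 had an unadjusted p under 0.05 and DESeq2 called 0 at each time. limma called 1 at 4 hr with either pseudocount, and without the library that stood apart 91 genes in place of 735 were called in all at 4 hr. The effect on *Jund* was more negative in the *Stat5b* line by 0.81, 0.86 and 0.72 (log2) at 4, 24 and 48 hr (adjusted p = 0.0052, 0.0002 and 0.0026), under 2-fold. For *Jun* at 24 hr the *Stat5b* effect minus the *Stat5a* effect was −0.36 (95% interval −0.90 to 0.18), and for *Fosl1* at 48 hr −0.96 (−1.98 to 0.06). For *Fosl2* at 48 hr it was −0.93 (−1.57 to −0.30, adjusted p = 0.057). These intervals reach to about a 2-fold difference or beyond.

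Between WT cells of the lines, none of the 10 passed at 0, 24 or 48 hr (background 0.308%, 0.00642% and 0%, edgeR), with 2, 3 and 1 at an unadjusted p under 0.05 and 0 by DESeq2 or limma. At 4 hr *Fosl2* was 2.23-fold higher in WT cells of the *Stat5b* line (adjusted p = 0.0017, background 6.42%). Without the library that stood apart the difference was 0.82 (log2, adjusted p = 0.022, edgeR) and no longer 2-fold. In that fit 27 genes in place of 999 made up the background. The *Fosl2* call was also lost without WT replicate 1 of the *Stat5a* line (0.97) and with only the libraries compared (1.12, adjusted p = 0.5, edgeR). The 10 calls between 4 and 0 hr in the *Stat5a* line held without that library.

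The genes most like each member over the 16 group means (Pearson correlation of log2(RPKM + 1), 11679 genes, given as a description, since groups share lines and times) were taken from all genes with enough reads. *Fos* was most like *Fosb* and *Sik1*, both at 0.996, *Fosb* most like *Klf4* (0.998), *Junb* most like *Maff* (0.996) and *Dusp1* (0.995), and *Maff* most like *Junb* and *Per1* (0.996). *Jund* was most like *Slc25a25* (0.990), *Jun* like *Gm7334* and *Btg3* (0.977), *Fosl2* like *Traf6* (0.952), *Batf* like *Rcn2* (0.951), *Batf3* like *Ghdc* (0.937) and *Fosl1*, less closely, like *Hbegf* (0.885). *Fosl1* and *Fos* correlated at 0.01.

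Among 16 other basic leucine zipper genes of the ATF, BATF, MAF and NRF groups, 5 were lower and 1 higher at 4 hr in *Stat5a* line WT cells. In *Stat5b* line WT cells 3 were lower and 1 higher. Beside these, 11.4% and 9.89% of all genes were lower and 10% and 5.83% higher. *Atf3*, a stress-induced repressor, fell from 28.5, 38.4 and 20.9 RPKM to 1.70, 1.35 and 1.33 RPKM in the *Stat5a* line (−4.29 ± 0.27 log2) and by 3.64 ± 0.25 in the *Stat5b* line. *Mafk*, a small MAF protein like MAFF, fell by 2.28 and 2.10 (log2), and *Nfe2l2*, the NRF2 factor of oxidative stress, rose by 1.57 and 1.94. *Batf2*, counted among the lower genes of the *Stat5a* line, had 2 to 13 reads at 0 hr and 0 to 3 at 4 hr, at or under the floor, so no fold is given. At 48 hr 6 were lower in each line and 1 and 2 higher, beside 22.3% and 20.7% of all genes lower and 14.3% and 14.6% higher. In KI against WT cells 0, 2, 2 and 2 of the 16 were higher in the *Stat5a* line from 0 to 48 hr, the first with 4 at an unadjusted p under 0.05 and 0 by DESeq2, and 4, 3, 3 and 2 in the *Stat5b* line. Of all genes 0.861%, 2.47%, 3.21% and 6.35% were higher in the first line and 7.38%, 9.2%, 10.9% and 16.5% in the second. *Maf* was higher by 1.88 (log2) at 24 hr in the *Stat5b* line. *Batf2* was lower there at 24 hr (16 to 27 reads in WT and 2 to 6 in KI libraries), and *Atf4*, of amino acid stress, at 48 hr (−1.03 ± 0.11).

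Of 17 genes of the MAP kinase route to AP-1, 2 were lower at 4 hr in WT cells of the *Stat5a* line, and 1 in those of the *Stat5b* line, beside 11.4% and 9.89% of all genes. *Map2k6*, a kinase that activates p38, fell from 5.94, 5.76 and 5.86 RPKM to 0.67, 0.23 and 0.98 RPKM in the *Stat5a* line (−3.23 ± 0.17 log2) and by 2.50 in the *Stat5b* line. *Map2k6* was the gene of the list that passed in KI against WT cells of the *Stat5b* line, higher by 1.22 at 24 hr and 1.32 at 48 hr.

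Of the IRF partners of BATF, *Irf4* was lower in KI cells at 48 hr. It had 13.6, 16.3 and 17.9 RPKM in WT and 7.59, 5.26 and 5.91 RPKM in KI cells of the *Stat5a* line (−1.41 ± 0.21 log2, adjusted p = 1e-06, edgeR), and 17.8, 15.6 and 15.4 against 6.13, 6.13 and 6.00 RPKM in the *Stat5b* line (−1.5 ± 0.21, 1.1e-07). In fresh cells of the *Stat5b* line *Irf4* was higher in KI cells by 1.53 ± 0.21, together with the B cell markers. At 4 hr its means in that line were 20.2 RPKM in KI and 11.8 RPKM in WT cells. Fresh cells of the *Stat5a* line had 31.5 to 33.8 RPKM in KI and 9.08 to 24.3 RPKM in WT libraries, without overlap but with no call. The response of *Irf4* to 48 hr was lower in KI cells of the *Stat5b* line by 3.03 ± 0.30, and it also passed in the *Stat5a* line. *Irf8*, at 53.5 and 35.4 RPKM in the *Stat5a* line and 52.0 and 29.5 RPKM in the *Stat5b* line at 48 hr, was under 2-fold between WT and KI cells (−0.65 and −0.90 log2, adjusted p = 0.002 and 2.3e-05). It was higher in fresh KI cells (0.65 and 0.96), and its response to 48 hr was lower in KI cells by 1.30 ± 0.24 and 1.85 ± 0.24 (adjusted p = 9.2e-05 and 4.9e-08, edgeR).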

How the data were processed

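Polyadenylated RNA of CD8+ T cells was made into libraries with the KAPA mRNA HyperPrep kit from 100 ng of total RNA and read as 50-base single ends, and the authors aligned reads to mm10 with TopHat 2.0.11 and counted uniquely mapped reads over RefSeq exons. For each transcript, every deposited table gives the authors' raw count together with an RPKM value. The counting program and its use of strand are not given in the sources used here. One IgG sample of chromatin work was not used.

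The longest transcript of each symbol was kept. Read totals over these ranged from 17369112 to 60200653 (median 41410666). Counts of 47 libraries were fitted in 1 edgeR 4.0.16 quasi-likelihood model (R 4.3.3) with a mean per group, TMM scaling and filterByExpr at a minimum count of 10, and p-values were Benjamini-Hochberg adjusted over 15566 genes. A gene was called at an adjusted p of at most 0.05 and at least 2-fold. The procedure was tested on simulated data, and the outcome is not given here. RPKM values are levels per length. Alternatives were all 48 libraries, DESeq2 1.42.0 (size factors and test), no filter, the transcript with the most reads, limma 3.58.1 on log2(RPKM + 1 or 0.1), only the libraries compared, a replicate block and leaving out each library.

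Every member is named. From each other list the most abundant gene and at most 3 called genes with the largest change are named, and for each member the genes most like it. Some genes of these lists are not reported here by name. Exceptions, chosen after their values were seen, are *Cd3d*, *Ccdc85b*, *Clec9a*, *Xcr1*, *Nfe2l2*, *Irf8* and markers at 0. The members and lists were chosen with earlier results of these data known. Replicates of no group agreed within sampling noise. Replicate numbers correlated above 0.1 in every pair only for WT cells of the *Stat5a* line at 24 against 0 hr (0.206, 0.273 and 0.419) and 48 against 0 hr (0.166, 0.117 and 0.192). The reported fit held no pairs. A block by replicate number, a pairing that comes from the data and not from the labels, was run as an alternative.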

Additional observations from a re-analysis of the deposited data

Results flagged for a closer look

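The change from 0 hr differed between KI and WT cells beyond both thresholds for 9 combinations of gene, time and line, by the interaction of genotype and time in edgeR (log2, KI minus WT). In the *Stat5a* line these were *Jun* at 24 hr (−1.85), *Fosl1* at 48 hr (−1.64) and *Batf3* at 48 hr (−2.28). In the *Stat5b* line they were *Jun* (−2.18), *Fosl1* (−2.08) and *Fos* (−1.04) at 24 hr, and *Fosl1* (−2.38), *Batf3* (−1.81) and *Jun* (−1.28) at 48 hr. WT cells of the *Stat5b* line had more *Fosl2* than those of the *Stat5a* line at 4 hr (1.15). That call was lost without *Stat5a* line WT replicate 1 or 2 (0.97 and 0.82) and with only the libraries compared (1.12, adjusted p = 0.5, edgeR).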

How the results depend on the processing

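No direction of a called value reversed under the alternatives run, 489 of 537 alternative counts of called members stayed within 1.5 times the reported count, and 2390 of 2474 values of single members stayed on their side of the thresholds. Of 85 calls of a member, 73 were kept in every fit that left out 1 library. limma on log2(RPKM + 1), a scale that shrinks the change of low genes such as *Fosl1* and *Batf3*, lowered the counts of called members to 0 (from 2) for 48 against 24 hr in the *Stat5a* line, 3 (from 5) for 24 against 4 hr in the *Stat5b* line, 1 (from 2) and 0 (from 2) for KI against WT at 24 and 48 hr in the *Stat5a* line, 0 (from 1), 0 (from 2) and 1 (from 3) at 0, 4 and 24 hr in the *Stat5b* line, and 1 (from 2) and 1 (from 3) for the response at 48 hr in the *Stat5a* line and at 24 hr in the *Stat5b* line. With either limma pseudocount the KI effect differed between lines at 4 hr for 1 member (from 0) and WT cells for 2 (from 1). limma on log2(RPKM + 0.1) called 1 member (from 0) at 4 hr and 1 (from 2) at 24 hr for KI against WT in the *Stat5a* line. All 48 libraries gave 1 and 1 for these and 0 (from 1) for KI against WT at 0 hr in the *Stat5b* line, and DESeq2 gave 1 at 4 hr. For 48 against 24 hr in the *Stat5b* line the count was 1 (from 0) with the replicate block, all 48 libraries, DESeq2 size factors, no filter, the transcript with the most reads and DESeq2. The replicate block, the fit by pairing of numbers, moved no other count of called members by over 1.5 times. With only the libraries compared, WT cells of the lines differed for 0 members at 4 hr (from 1). Leaving out 1 library gave 0 to 2 for 48 against 24 hr in each line, 0 to 1 for KI against WT at 0 and 4 hr and 1 to 2 at 24 hr in the *Stat5a* line, 0 to 1 at 0 hr in the *Stat5b* line, 1 to 2 for the response at 24 hr in the *Stat5a* line, 0 to 1 for the KI effect between lines at 4 and 48 hr, and 0 to 2 and 0 to 1 for WT lines at 0 and 4 hr. Counts over all genes also moved. limma on log2(RPKM + 1) called 986 in place of 3330 genes for 4 against 0 hr in the *Stat5a* line and 1420 in place of 4091 for KI against WT at 48 hr in the *Stat5b* line, and other comparisons moved by factors of up to 13.9. For KI against WT in the *Stat5a* line, all 48 libraries called 23 in place of 162 genes at 0 hr and 2668 in place of 1032 at 4 hr, and only the libraries compared called 1 and 0. The response at 4 hr in that line had 1293 in place of 53 with all 48 libraries, and 6 to 629 when 1 library was left out. Between WT lines at 4 hr all 48 libraries called 85 in place of 999, and the replicate block 600. The replicate block called 74 in place of 0 at 48 hr and DESeq2 16. The causes were not tested.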
